A study of Mus musculus with 60 samples.

Results

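A set of 35 genes of sterol and fatty acid synthesis, together with their transcriptional and sensor regulators, was followed across the embryonic mouse brain. A gene entered the set when a feature of that exact name was listed in the deposited expression table, and all 35 were found among 24378 listed features. They comprised 7 regulators (the sterol regulatory element binding factors Srebf1 and Srebf2, their escort Scap, the retention factors Insig1 and Insig2, and the liver X receptors Nr1h2 and Nr1h3), 17 enzymes of sterol synthesis, 3 genes of sterol transfer and efflux, and 8 enzymes of fatty acid synthesis. The study profiled bulk RNA from 5 brain regions at 4 daily stages, with 3 libraries for each of the 20 combinations, and its title concerns the niche in which midbrain dopaminergic neurons are born. Every group, the comparison regions included, came from embryos of TH-GFP mice, in which a green fluorescent protein transgene marks tyrosine hydroxylase expressing cells and was used to guide dissection. The regions were the ventral midbrain, dissected as basal plate together with floor plate, the dorsal midbrain, the alar plate, the ventral forebrain and the ventral hindbrain. Stages were a day apart, the first E11.5 and the last E14.5, and no group received a treatment. Neither the brain level of the alar plate pieces nor the embryo behind each library is stated in the labels, and the p-values therefore measure only the spread between these samples, which may be technical.

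The proteins encoded by Srebf1 and Srebf2 are made as membrane-bound precursors of the endoplasmic reticulum. When membrane sterol is low, Scap carries them to the Golgi, where proteases release the active transcription factors, and when sterol is plentiful Insig1 and Insig2 hold the complex back. The Srebf2 protein acts mainly on cholesterol synthesis genes and the Srebf1 protein mainly on fatty acid synthesis genes, and the liver X receptors, which bind oxysterols, can induce Srebf1 and the efflux pumps Abca1 and Abcg1. The embryonic brain makes most of its own cholesterol, and oxysterol ligands of the liver X receptors have been linked to the birth of midbrain dopaminergic neurons.

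Short sequence motifs of 3 kinds were searched in the 250 bases upstream of annotated starts, because sterol-responsive promoters often pair a sterol regulatory element with a box for the factor NF-Y. RefSeq windows of the mouse build GRCm38.p6 were matched to 27 of the 35 genes by symbol. The windows below show the regulators Srebf1 and Insig1, and Hmgcs1, the synthase that commits acetyl units to the mevalonate pathway and the only matched member holding the sterol regulatory element as spelled here. Each is written 5′ to 3′ on the strand of its gene, and capitals mark the motif matches. The NF-Y box was searched as CCAAT on both strands, so that a match on the other strand reads ATTGG here. The E-box, a palindrome, was searched as CACGTG, and the sterol regulatory element as TCACNCCAC on both strands. The Insig1 window was trimmed to the 201 bases before its first exon base.
Srebf1, first start (chr11:60222582-60222831, minus strand): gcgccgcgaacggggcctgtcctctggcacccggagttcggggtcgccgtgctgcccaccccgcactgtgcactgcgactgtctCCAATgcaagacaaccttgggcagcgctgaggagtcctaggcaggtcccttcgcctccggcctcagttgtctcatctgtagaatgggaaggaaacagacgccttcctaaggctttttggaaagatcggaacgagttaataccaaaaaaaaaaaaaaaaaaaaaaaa
Srebf1, further downstream start (chr11:60210472-60210721, minus strand): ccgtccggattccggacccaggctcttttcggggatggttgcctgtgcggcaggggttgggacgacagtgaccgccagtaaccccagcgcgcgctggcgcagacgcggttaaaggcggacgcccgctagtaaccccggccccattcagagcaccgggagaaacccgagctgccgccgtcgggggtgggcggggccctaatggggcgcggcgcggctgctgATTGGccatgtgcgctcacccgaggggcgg
Insig1 (chr5:28071162-28071362, plus strand): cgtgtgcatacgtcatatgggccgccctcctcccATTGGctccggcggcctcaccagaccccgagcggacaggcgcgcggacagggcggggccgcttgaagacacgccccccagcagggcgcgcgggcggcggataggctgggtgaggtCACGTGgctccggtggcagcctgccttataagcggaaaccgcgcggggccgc
Hmgcs1 (chr13:119690101-119690350, plus strand): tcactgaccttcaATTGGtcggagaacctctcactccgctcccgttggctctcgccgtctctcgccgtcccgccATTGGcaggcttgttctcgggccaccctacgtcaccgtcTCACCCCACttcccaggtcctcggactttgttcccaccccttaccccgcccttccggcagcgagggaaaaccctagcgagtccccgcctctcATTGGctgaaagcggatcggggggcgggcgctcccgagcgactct
The CCAAT box lay at -166 from the first Srebf1 start and, on the other strand, at -30 from the downstream start, while the window of a start between them held none of the 3 motifs. The table gives a single value per gene, so reads from these starts cannot be told apart. Insig1 held ATTGG at -216 and the E-box CACGTG at -101, and Hmgcs1 held TCACCCCAC at -137 flanked by ATTGG at -237, -176 and -45. On both strands CCAAT was found in 18 of the 27 matched genes (66.7%), against 37.5% of all 27025 genes of the RefSeq table, and in 13 of the 14 matched sterol synthesis genes (92.9%). With the first-listed window alone it was found in 17 of 27 (63%), against 34.5% of all genes. CACGTG was found in 6 of 27 (22.2%) against 6.86%, and TCACNCCAC in 1 of 27 (3.7%) against 1.22%. No match in the printed windows overlaps another, and a match describes these letters only.

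Library depth, in units of 1000000 assigned reads, was lowest at E14.5 (0.979 to 6.13) and E11.5 (1.58 to 6.43) and higher at E12.5 (8.67 to 13.1) and E13.5 (4.97 to 23.6). Regional identity was clearest at E13.5: 15 of the 60 libraries lay closer to the mean of another region than to their own, 7 at E11.5, 5 at E12.5, 0 at E13.5 and 3 at E14.5, and all 3 alar plate libraries of both E11.5 and E12.5 were among them. Th, the dopaminergic marker, averaged 10.9, 79.1, 79.9 and 71.9 RPKM in the ventral midbrain from E11.5 to E14.5 and at most 8.54 in any other group, whereas Slc6a3, the dopamine transporter, was listed at 0 there at E11.5. Nkx2-1, a ventral forebrain marker, was highest in the ventral forebrain. Name prefixes in the sample descriptions, read here as runs, were shared between stages only by the dorsal midbrain at E11.5 and the alar plate, ventral forebrain and ventral hindbrain at E14.5. Over the 5 regions together a stage difference and a run difference cannot be told apart. Ventral midbrain replicate 4 of E11.5 went against its label: its 6 dopaminergic markers summed to 16.4 RPKM, against 150 and 178 in the other ventral midbrain libraries of that stage, its dorsal midbrain position markers to 24.5, against 2.37 and 0.775, and it correlated better with the ventral hindbrain (0.981) than with its own group (0.969). Ventral midbrain replicates 3 and 4 at E14.5 had the lowest chi-square per feature of any replicate pair (1.11, the next lowest being 1.46, where counting noise gives about 1). Both were shallow, at 1.24 and 1.67 in units of 1000000 reads, and fewer reads give a lower value for the same difference. These values therefore do not show whether or not the pair came from separate samples. In bulk tissue, fewer cells of a type and less RNA per cell cannot be told apart.

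Levels are given as RPKM, which is per length and so can be set side by side between genes. Averaged over the 20 groups, the most abundant members were Hmgcs1 (278 RPKM), the brain stearoyl-CoA desaturase Scd2 (251), the citrate-cleaving enzyme Acly (131), the polyunsaturated fatty acid desaturase Fads2 (107) and the acetoacetyl-CoA thiolase Acat2 (92.1). Among the regulators Srebf2 averaged 72.2 RPKM and Srebf1 15.6, with Insig1 at 36.1, Nr1h2 at 20.2, Scap at 18.9 and Insig2 at 9.18. Nr1h3, the liver X receptor better known from liver and macrophages, averaged 0.624 RPKM and never exceeded 33 reads in a library. The ratio of the highest to the lowest group mean was largest for Idi1 (4.02), Scd1 (3.99), Stard4 (3.53) and Abca1 (3.47), was 2.59 for Srebf1 and was smallest for Fads1 (1.26).

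Srebf1 was higher in the ventral midbrain than in the other regions at E12.5 and E13.5. The 3 ventral midbrain libraries held 23.4, 24.3 and 23 RPKM at E12.5 and 19.6, 25.9 and 22.3 at E13.5. The 12 libraries of the other regions ran from 10.4 to 20.8 at E12.5 and from 11.3 to 17.7 at E13.5. At each of these stages every ventral midbrain library was above every other library, the nearest being a ventral hindbrain library at 20.8. How many of all genes were separated in this way was not counted. The ventral midbrain mean was 1.60 times the mean of the other libraries at E12.5 and 1.54 times at E13.5. As group means the ventral midbrain stood at 23.5 ± 0.673 and 22.6 ± 3.18 RPKM (SD, n = 3) at these stages, while the dorsal midbrain, alar plate, ventral forebrain and ventral hindbrain were at 15.9 ± 2.01, 14.3 ± 1.83, 12.7 ± 2.73 and 15.8 ± 4.34 at E12.5 and at 16.5 ± 1.35, 13.6 ± 2.16, 14.2 ± 1.32 and 14.3 ± 0.929 at E13.5. The libraries of the other 4 regions overlapped one another at E12.5. Over both stages, limma on log2(RPKM + 1), with Benjamini-Hochberg adjustment over 13994 genes, put Srebf1 higher in the ventral midbrain than in the mean of the other regions by 0.63 ± 0.09 (log2, SE; adjusted p = 5.2e-06). The same model put it lower in the ventral forebrain by -0.30 ± 0.09 (adjusted p = 0.021), a call lost without any of 4 ventral forebrain libraries (highest adjusted p 0.11), and gave 0.02 in the dorsal midbrain (adjusted p = 0.84). Fitted alone, E12.5 gave 0.66 in the ventral midbrain (adjusted p = 0.0074) and E13.5 gave 0.59 (adjusted p = 0.00059).

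At the flanking stages the ventral midbrain overlapped the other regions in Srebf1. Its libraries held 20.7, 14.7 and 18 RPKM at E11.5, when the ventral forebrain had the highest group mean (20.5 ± 2.11), and the difference from the other regions was -0.01 ± 0.11 (log2, SE; limma adjusted p = 0.97). The 14.7 is the library labelled ventral midbrain replicate 4, which went against its label, and without it the difference was 0.11 ± 0.11 (adjusted p = 0.75). Ventral forebrain replicates 2 and 4 of E11.5 also lay closer to other regions, the ventral midbrain and ventral hindbrain. The 6 dopaminergic markers summed to 219 RPKM in a ventral forebrain library, above every ventral midbrain library of E11.5. Without all libraries closer to another region, which left no alar plate and only ventral forebrain replicate 6, the difference was 0.06. These labels therefore do not settle the regional order at E11.5. At E14.5 the ventral midbrain held 11.8, 16.6 and 13.8 against 8.01 to 13.9 elsewhere, a difference of 0.29 ± 0.11 (adjusted p = 0.081). Exons of Srebf1 share 109 bases with Rai1 on the opposite strand, and the library strand is not given in the sources used here, so reads in that stretch could come from either gene.

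The other regulators divided differently between regions. Srebf2, the sterol-directed partner of Srebf1, held 88.7, 93.9 and 85.6 RPKM in the dorsal midbrain at E12.5 against 56.6 to 83.8 elsewhere, and 81.8, 84.9 and 88.4 at E13.5 against 60.5 to 75. The dorsal midbrain libraries were above all others at each stage, by 0.29 ± 0.05 in the limma fit over both (log2, SE; adjusted p = 9e-05), while the ventral midbrain differed by -0.04 (adjusted p = 0.67). Nr1h2, the broadly expressed liver X receptor, held 26.5, 28.3 and 23.9 RPKM in the dorsal midbrain at E12.5 and 29.7, 31.5 and 28.4 at E13.5, the last 3 above all others (18.3 to 27.3), a difference of 0.32 ± 0.06 (adjusted p = 0.00011). In the ventral hindbrain Nr1h2 held 19.8, 19.8 and 18.2 at E12.5 and 18.3, 21.3 and 23.6 at E13.5, lower than the mean of the other regions by -0.25 (adjusted p = 0.0031). A processed pseudogene of Nr1h2 is annotated, and reads shared with it could not be separated.

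Scap, which escorts both precursors, was high in the ventral midbrain and ventral hindbrain and low in the dorsal midbrain. Its ventral midbrain libraries held 22.3, 21.5 and 23.3 RPKM at E12.5 and 23.8, 26 and 25.2 at E13.5, and its dorsal midbrain libraries 16.8, 17.8 and 18.7 and then 17.1, 17.4 and 18.3. At E13.5 the dorsal midbrain lay below every other library (19.1 to 27.1), while the ventral midbrain overlapped the ventral hindbrain (25.9, 23.8 and 27.1). The limma differences over both stages were 0.23 ± 0.05 in the ventral midbrain (adjusted p = 0.0013), 0.20 in the ventral hindbrain (adjusted p = 0.0039), -0.26 ± 0.05 in the dorsal midbrain (adjusted p = 0.00013) and -0.18 in the alar plate (adjusted p = 0.02). Exons of Scap share 985 bases with the opposite-strand locus 5830462I19Rik.

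Insig1, itself a well-known target of the Srebf proteins, held 37.9, 42.9 and 40.5 RPKM in the ventral midbrain at E12.5 and 27.8, 36 and 32.8 at E13.5. In the dorsal midbrain it held 42.5, 40.7 and 28.1 and then 37.2, 43.3 and 42.1, the last 3 above all other libraries (23.3 to 36). In the ventral hindbrain it held 23.7, 32.5 and 24.5 and then 23.3, 25.9 and 23.9. Over both stages Insig1 had limma differences of 0.21 ± 0.08 (adjusted p = 0.045), 0.33 ± 0.08 (adjusted p = 0.00078) and -0.39 (adjusted p = 0.00046) for the ventral midbrain, dorsal midbrain and ventral hindbrain. The ventral midbrain call was lost in 17 of the 30 fits that left out 1 library (highest adjusted p 0.16), and at E13.5 alone the difference there was 0.07 (adjusted p = 0.64), against 0.35 at E12.5 alone (adjusted p = 0.082). Insig2 ran from 7.80 to 10.7 RPKM at E12.5 and from 8.55 to 10.4 at E13.5 and differed from the other regions in no region by the test. Nr1h3 was below the minimum for testing at these stages, at 0.250 to 1.03 RPKM over the libraries of E12.5 and 0.440 to 0.983 over those of E13.5.

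**Figure D1:**
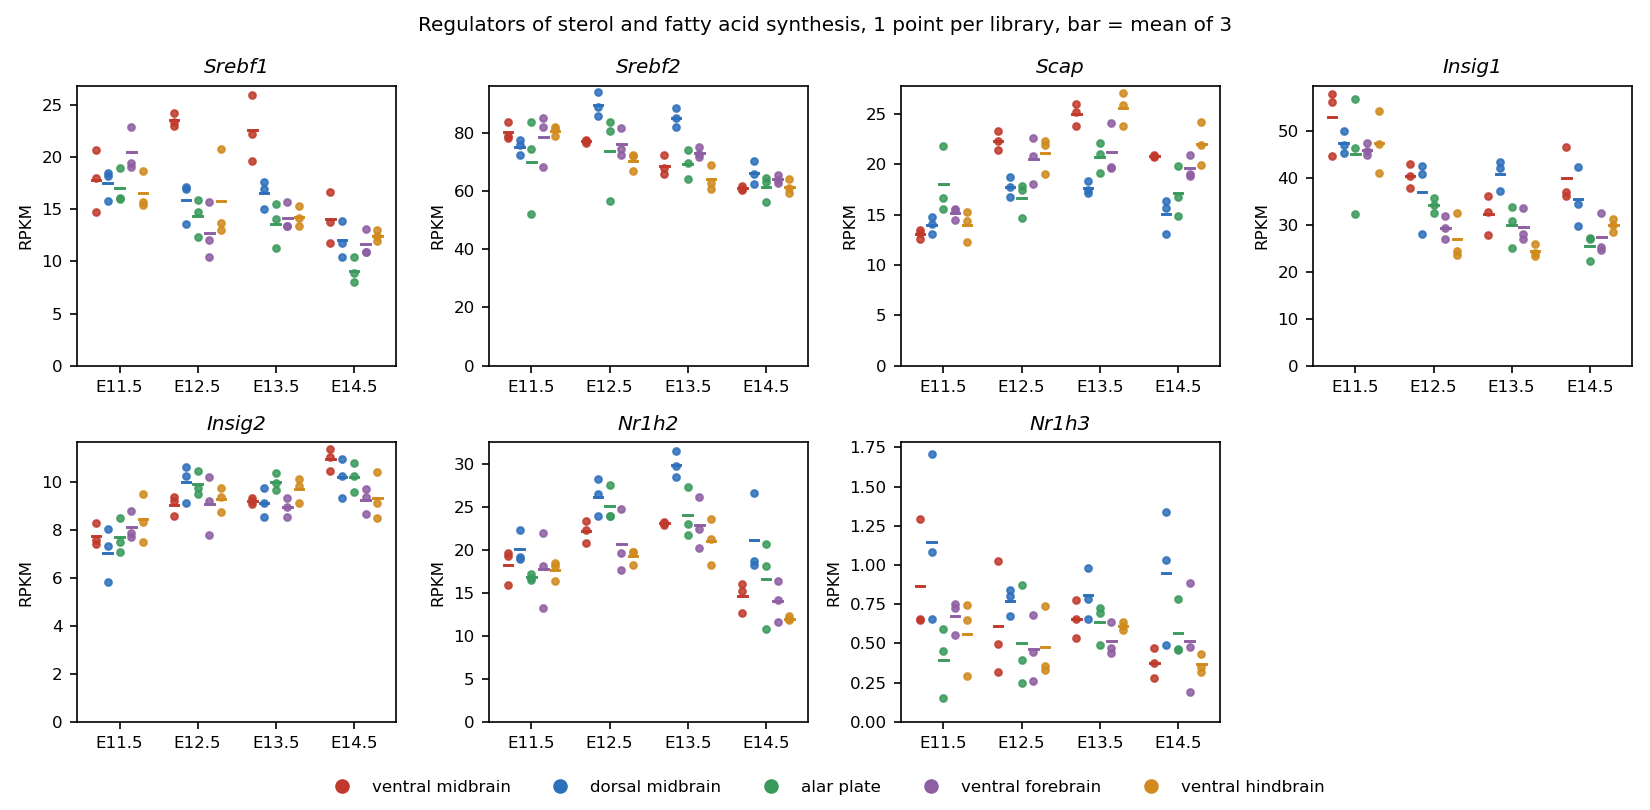
RPKM of the 7 regulators in each of the 60 libraries (dots, coloured by region) by stage, with a bar at the mean of the 3 libraries of each region; each y axis starts at 0. The ventral midbrain dots for Srebf1 lie above all others at E12.5 and E13.5 and among them at E11.5 and E14.5, and the dorsal midbrain dots for Srebf2 lie above all others at E12.5 and E13.5.

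Across the whole set, 24 of 34 tested members differed among the 5 regions at E12.5 and E13.5 (70.6%; limma F test, adjusted p below 0.05), where 68.6% of all tested genes did, so the share is near the background. At an adjusted p below 0.01 there were 17 members, and 55.2% of all genes. The smallest adjusted p-values were those of Cyp51 (3.6e-08), Idi1 (3.4e-07), Hmgcs1 (7.5e-06), Acat2 (1.6e-05), and Srebf1 and Scap (both 1.9e-05). By role, 5 of 6 regulators, 11 of 17 sterol synthesis enzymes, 3 of 3 transfer and efflux genes and 5 of 8 fatty acid enzymes passed. The region contrasts below share libraries, each region being part of the comparison for every other.

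In the ventral midbrain 5 of 34 members were higher (14.7%, against 15.7% of all genes) and 5 lower (14.7%, against 13.8%), both shares near the background. The 5 higher were the regulators Srebf1, Scap and Insig1, the cholesterol efflux pump Abca1 and Fads2. All 5 lower were sterol synthesis enzymes, Cyp51, Acat2, Hmgcs1, Nsdhl and Idi1. The median log2 difference was -0.05 over the members and -0.02 over all genes. Over both stages together the fitted differences of Srebf1 and of these 5 enzymes had opposite signs. At E12.5 alone Hmgcs1 (-0.11; limma adjusted p = 0.38), Nsdhl (-0.11; 0.34), Idi1 (-0.27; 0.24) and Acat2 (-0.28; 0.054) were not called. The calls for Srebf1, Scap, Cyp51, Acat2, Hmgcs1, Nsdhl and Idi1 held in all 30 fits that left out 1 library. Fitted alone, E12.5 gave only Srebf1 and Cyp51 as called, 2 members, and E13.5 gave 11, 3 higher and 8 lower. The share of all genes in these single-stage fits is not given, so the counts have no background.

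Cyp51, the lanosterol 14-alpha demethylase, held 46.9, 47.4 and 46.8 RPKM in the ventral midbrain at E12.5 and 43.3, 42.9 and 46.3 at E13.5. The dorsal midbrain held 67.2, 62.7 and 62.3 and then 62.8, 61.9 and 65.6, the alar plate 73.8, 60.2 and 64.2 and then 54.7, 56.3 and 56.9, and the ventral forebrain 66.7, 60.3 and 56.3 and then 49.5, 59.3 and 49.6. The ventral hindbrain was as low as the ventral midbrain, at 46.5, 46.4 and 46.2 and then 47.1, 46.4 and 46. The ventral midbrain and ventral hindbrain thus formed a low pair that did not overlap the other 3 regions at either stage. The limma differences were -0.30 ± 0.04 in the ventral midbrain (adjusted p = 4e-06), -0.27 in the ventral hindbrain (adjusted p = 2.8e-05), 0.29 in the dorsal midbrain (adjusted p = 2.6e-06) and 0.20 in the alar plate (adjusted p = 0.0015). Exons of Cyp51 share 166 bases with Akap9 on the opposite strand.

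Idi1, the isopentenyl diphosphate isomerase, was likewise low in the ventral midbrain and ventral hindbrain, though with overlap. At E12.5 its libraries held 23.2, 26.1 and 24.3 RPKM in the ventral midbrain, 48.4, 42.9 and 32.3 in the dorsal midbrain, 45.8, 31.7 and 33.7 in the alar plate, 31.8, 25.1 and 23 in the ventral forebrain and 18.2, 21.6 and 20.1 in the ventral hindbrain, the last below all others. At E13.5 the dorsal midbrain held 36.7, 37.2 and 42.3, above all others (17.8 to 28.2), and the ventral midbrain 23.2, 17.8 and 18.9. The dorsal midbrain difference of 0.69 ± 0.08 (log2, SE; limma adjusted p = 2.1e-07) was the largest of any member in a region contrast at these stages, against -0.33 ± 0.08 in the ventral midbrain (adjusted p = 0.0028) and -0.47 in the ventral hindbrain (adjusted p = 0.0001). Exons of Idi1 share 323 bases with the opposite-strand locus Gm48574.

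Hmgcs1 held 242, 257 and 243 RPKM in the ventral midbrain at E12.5 and 206, 203 and 207 at E13.5, the last 3 below all other libraries (213 to 282). Its limma difference there was -0.17 ± 0.04 (adjusted p = 0.0014), against 0.22 in the dorsal midbrain (adjusted p = 3.6e-05). Acat2 held 78.9, 77.7 and 77.0 in the ventral midbrain at E12.5 and 75.8, 76.9 and 79.4 at E13.5. In the dorsal midbrain Acat2 held 110, 98.3 and 94.4 and then 95.7, 107 and 106, the last 3 above all others (75.8 to 93.3). The limma differences of Acat2 were -0.25 ± 0.05 (adjusted p = 0.00036) in the ventral and 0.23 (adjusted p = 0.00029) in the dorsal midbrain, which did not overlap. Nsdhl, a sterol dehydrogenase of the demethylation steps, was lower in the ventral midbrain by -0.18 ± 0.04 (adjusted p = 0.0026). Exons of Hmgcs1 share 557 bases with the opposite-strand locus Gm48342.

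Abca1, which exports cholesterol to apolipoproteins and is a well-known liver X receptor target, held 7.70, 6.60 and 7.49 RPKM in the ventral midbrain at E12.5 and 10.02, 7.22 and 5.90 at E13.5. The dorsal midbrain held 4.55, 4.31 and 6.33 and then 5.14, 3.42 and 3.79, below the ventral midbrain at each stage. The limma differences were 0.42 ± 0.14 in the ventral midbrain (adjusted p = 0.025) and -0.34 ± 0.14 in the dorsal midbrain (adjusted p = 0.035). The ventral midbrain call was lost without any of 3 ventral midbrain libraries, and without replicate 4 at E13.5, the library at 10.02, the difference was 0.32 (adjusted p = 0.11). In that library the 6 mesenchyme or meninges markers summed to 343 RPKM, against 6.05 and 5.62 in the other ventral midbrain libraries of E13.5, and their part was not tested. Fads2 held 117, 121 and 119 RPKM in the ventral midbrain at E12.5 and 113, 111 and 105 at E13.5, the latter just above all others (87.0 to 105), and differed by 0.20 ± 0.07 (adjusted p = 0.025), a call lost without any of 4 ventral midbrain libraries (highest adjusted p 0.065). Fasn, the fatty acid synthase, and Scd1, a stearoyl-CoA desaturase, both known Srebf1 targets, differed in the ventral midbrain by -0.08 (adjusted p = 0.62) and 0.11 (adjusted p = 0.47).

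Markers of other cell types moved with the ventral midbrain. All 5 tested microglia markers were higher there (median log2 difference 0.53), their sum being 13.1 to 15.8 RPKM against 6.52 to 16.9 elsewhere at E12.5 and 19.8 to 40.1 against 7.85 to 18.4 at E13.5. Of 8 neural progenitor or radial glia markers 4 were higher (median 0.43), and 2 of 6 proliferation markers were lower (median -0.54). Their part in the member differences was not tested.

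The dorsal midbrain had the most member calls: 14 of 34 were higher (41.2%, against 32.3% of all genes) and 5 lower (14.7%, against 28.2%). By role, 3 regulators, 8 of 17 sterol synthesis enzymes, 1 transfer gene and 2 of 8 fatty acid enzymes were higher, and 1 regulator, 2 sterol enzymes and both efflux pumps were lower. The median log2 difference was 0.10 over the members and 0.03 over all genes. Besides Cyp51, Idi1, Hmgcs1 and Acat2, the sterol enzymes Lss (0.42 ± 0.10; limma adjusted p = 0.0007), Nsdhl (0.19), Hsd17b7 (0.23) and Dhcr7 (0.20) were higher. Lss, which closes the sterol ring, held 23.7, 25.2 and 23.7 RPKM at E13.5, above all others (14.1 to 21.3), and shares 381 exon bases with an opposite-strand locus. The sterol enzymes Pmvk (-0.21) and Tm7sf2 (-0.30) were lower. Exons of Tm7sf2 share 532 bases with the protein-coding gene Vps51 on the same strand, so reads there could come from either gene. Fitted alone, E12.5 gave 5 calls in the dorsal midbrain and E13.5 gave 21, both without a share of all genes to set beside them.

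Stard4, which moves cholesterol between membranes, held 12, 10.8 and 7.71 RPKM in the dorsal midbrain at E12.5 and 9, 8.73 and 9.02 at E13.5, the last 3 above all others (4.43 to 6.75). The limma difference over both stages was 0.61 ± 0.10 (adjusted p = 9.1e-06). Fasn held 106, 107 and 83.2 in the dorsal midbrain at E12.5 and 99.1, 99.2 and 103 at E13.5, again above all others at the later stage (62.6 to 83.1), by 0.44 ± 0.11 (adjusted p = 0.0011). Acly, which supplies acetyl-CoA to both pathways, was higher by 0.24 (adjusted p = 0.00096). Abcg1, a partner of Abca1 in sterol efflux, was lower by -0.33 (adjusted p = 0.00025). In the dorsal midbrain Srebf2 and 8 of 17 sterol synthesis enzymes were thus high while both efflux pumps were low. The Abca1 call was lost without any of 4 dorsal midbrain libraries (highest adjusted p 0.10), and at E12.5 alone its difference was -0.16 (adjusted p = 0.59). All 6 proliferation markers were also higher there (median 1.68), summing to 240 to 538 RPKM against 77.1 to 369 elsewhere at E12.5 and to 329 to 413 against 57 to 216 at E13.5. Of 8 neuron markers 6 were lower (median -0.44), and of 6 mesenchyme or meninges markers 4 were higher (median 2.14). Their part in the member differences was not tested.

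In the ventral hindbrain 1 of 34 members was higher (2.94%, against 19.4% of all genes), Scap, and 11 were lower (32.4%, against 20.2%). The 11 lower were Srebf2, Nr1h2 and Insig1 among the regulators, 7 sterol synthesis enzymes (Cyp51, Idi1, Fdps, Hmgcs1, Acat2, Nsdhl and Lss) and Scd1. The median log2 difference was -0.10 over the members and -0.02 over all genes. Fdps, the farnesyl diphosphate synthase, held 39 to 43 RPKM at E12.5 against 52.4 to 94.3 elsewhere, without overlap, but 50.6, 51.4 and 60.04 against 48.9 to 67.8 at E13.5, with overlap. Its limma difference was -0.33 over both stages (adjusted p = 0.00067), -0.55 at E12.5 alone (adjusted p = 0.0087) and -0.11 at E13.5 alone (adjusted p = 0.30). An annotated gene on the same strand, Gm43738, shares 1124 exon bases with Fdps. All 6 proliferation markers were lower there (median -0.97), 4 of 8 neuron markers were higher, and 4 of 6 mesenchyme or meninges markers were lower (median -1.72), and their part was not tested. Without the libraries that lay closer to another region, the ventral hindbrain count was 19, of which 3 were higher and 16 lower. Fitted alone, E12.5 gave 5 calls and E13.5 gave 9, and at E13.5 Fdps, Hmgcs1 (-0.06), Acat2 (-0.08), Nsdhl (-0.02) and Scd1 (-0.24) were not called. The counts of 19, 5 and 9 are given without a share of all genes, so they have no background.

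The alar plate and ventral forebrain had few calls. In the alar plate 3 of 34 members were higher (8.82%, against 5.27% of all genes), Cyp51, Acat2 (0.17) and Hmgcs1 (0.12), and 2 were lower (5.88%, against 8.35%), Fads2 (-0.26) and Scap. All 3 alar plate libraries of E12.5 lay closer to another region, and without such libraries, with E13.5 alone left for this region, the count was 0. The number also fell from 5 to 2 without alar plate replicate 3 of E12.5, to 3 without replicate 5 or replicate 6 of E13.5, and went to 9 without replicate 1 of E12.5. In the ventral forebrain 3 were higher (8.82%, against 5.72%), Tm7sf2 (0.27; limma adjusted p = 0.0068), Sqle (0.12) and Elovl6 (0.18), and 1 was lower (2.94%, against 8.17%), Srebf1. The call of Sqle was lost in 12 and that of Elovl6 in 16 of 30 fits that left out 1 library, and neither was called at E12.5 or E13.5 alone. Without libraries closer to another region the ventral forebrain count was 10, with 5 in each direction, a count given without a share of all genes. No member in any of the 5 regions passed when a difference of at least 1 on the log2 scale was also required, where 2.84% of all genes did in the ventral midbrain, 6.25% in the dorsal midbrain, 1.07% in the alar plate, 0.95% in the ventral forebrain and 2.77% in the ventral hindbrain.

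**Figure D2:**
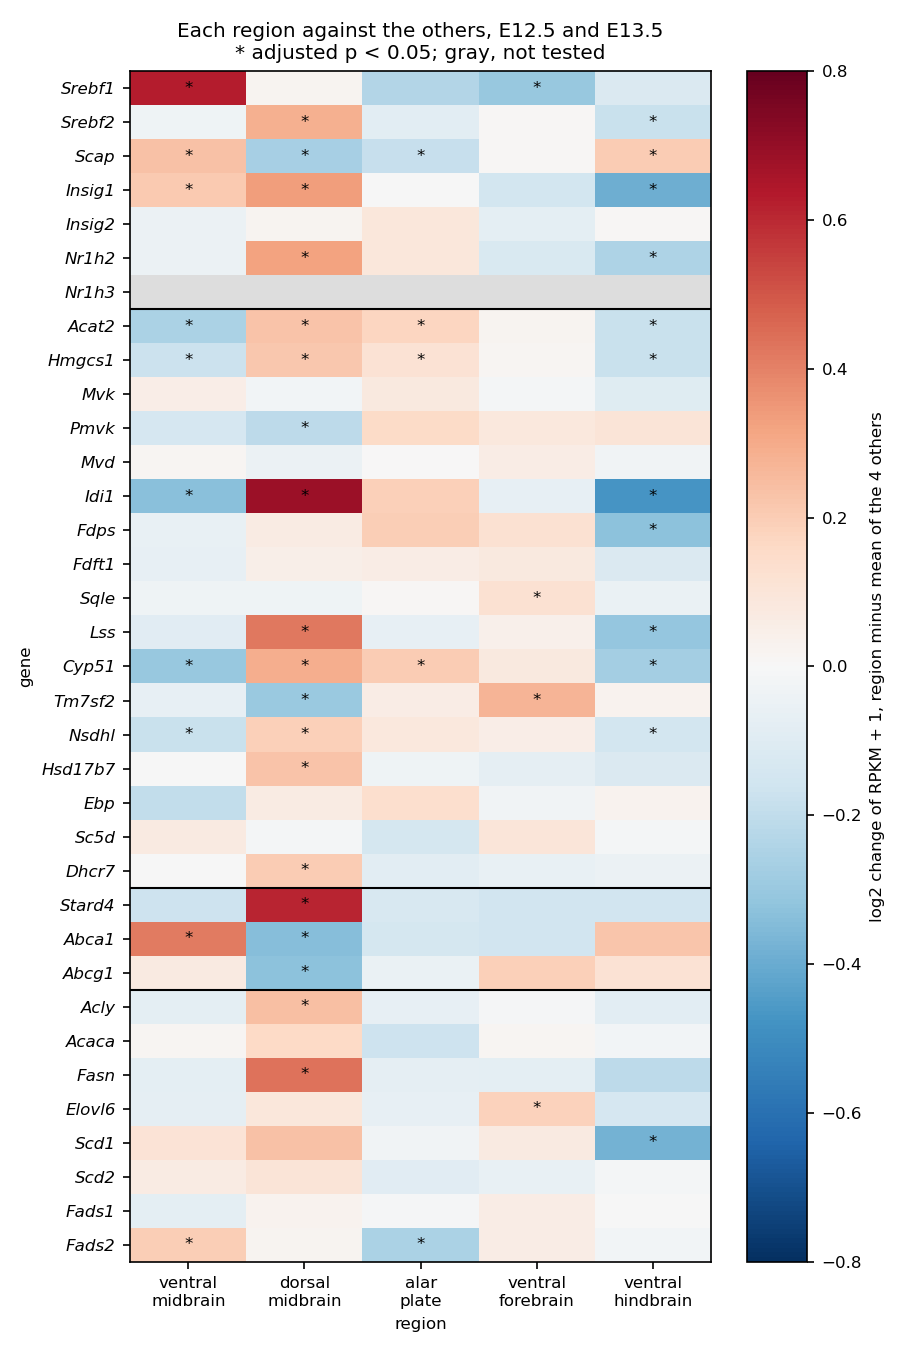
Heat map of the log2 difference of each member (a line per gene, grouped by role) between a region and the mean of the other 4 regions at E12.5 and E13.5, with an asterisk where the limma adjusted p was below 0.05; Nr1h3, gray, was not tested. Srebf1 is highest in the ventral midbrain column (0.63), and of the 17 sterol synthesis enzymes 8 are marked as higher in the dorsal midbrain and 7 as lower in the ventral hindbrain.

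The ventral midbrain was also compared with the other regions at the first and last stage. Its run prefix differed from that of the dorsal midbrain alone at E11.5, and from that of every region but the dorsal midbrain at E14.5. Against those regions a region difference and a run difference cannot be told apart. At E11.5, 0 of 35 members passed the limma test (4 were below 0.05 before adjustment, and voom, run on reads recovered from the RPKM, also gave 0), where 0.0217% of all 13802 tested genes passed, with and without the minimum of 1 on the log2 scale. The median log2 difference was 0.05 over the members and -0.03 over all genes. Without the libraries that lay closer to another region 3 members passed, all higher, and the share of all genes in that fit is not given.

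At E14.5, 7 of 34 members were higher in the ventral midbrain (20.6%, against 8.86% of all genes) and 0 lower (against 9.21%), with a member median of 0.14 and an all-gene median of -0.03. Region and run prefix are mixed here for the alar plate, ventral forebrain and ventral hindbrain. Scd1 held 11.8, 12.7 and 10.8 RPKM there against 4.77 to 10.2 elsewhere, with no overlap, a limma difference of 0.71 ± 0.13 (log2, SE; adjusted p = 0.0025). Sc5d, the sterol C5 desaturase, held 28.8, 28.4 and 23.2 in the ventral midbrain, 17.6, 16.3 and 18.2 in the dorsal midbrain, 19.2, 16.2 and 18 in the alar plate, 22.6, 22 and 23 in the ventral forebrain and 22.5, 24.1 and 23.2 in the ventral hindbrain, so that 1 ventral midbrain library fell among those of the hindbrain. Its difference was 0.39 ± 0.08 (adjusted p = 0.0035). These 2 calls held in all 15 fits that left out 1 library.

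The other 5 higher members at E14.5 were Insig1, Hsd17b7, Fads2 (0.27), Dhcr7 (0.26) and Scd2 (0.19). Of 15 fits that left out 1 library, 5 lost the call of Fads2, 6 that of Dhcr7 and 11 that of Scd2 (highest adjusted p 0.12, 0.17 and 0.18). Insig1 held 36.2, 46.5 and 36.9 RPKM in the ventral midbrain, 34.4, 29.7 and 42.4 in the dorsal midbrain and 22.2 to 32.5 in the rest, and its difference was 0.43 ± 0.11 (limma adjusted p = 0.019), lost without ventral midbrain replicate 3. Hsd17b7, a ketosteroid reductase of the demethylation steps, held 7.41, 10.1 and 6.16 there, and its difference of 0.46 ± 0.13 (adjusted p = 0.029) was lost without ventral midbrain replicate 2 or 3. The count of 7 became 4 without ventral midbrain replicate 4 or alar plate replicate 4, 3 without ventral midbrain replicate 2, 2 without ventral midbrain replicate 3, and 4 without the libraries closer to another region. Against the dorsal midbrain alone, which shared a run prefix with the ventral midbrain at this stage, 8 members passed and 5 of the 7 calls were kept. The share of all genes in that fit is not given. No member passed with the minimum of 1 on the log2 scale, against 3.28% of all genes. All 6 proliferation markers were lower in the ventral midbrain at E14.5 (median -1.15), summing to 52.4 to 55.9 RPKM against 53.4 to 344 elsewhere, and their part was not tested.

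**Figure D3:**
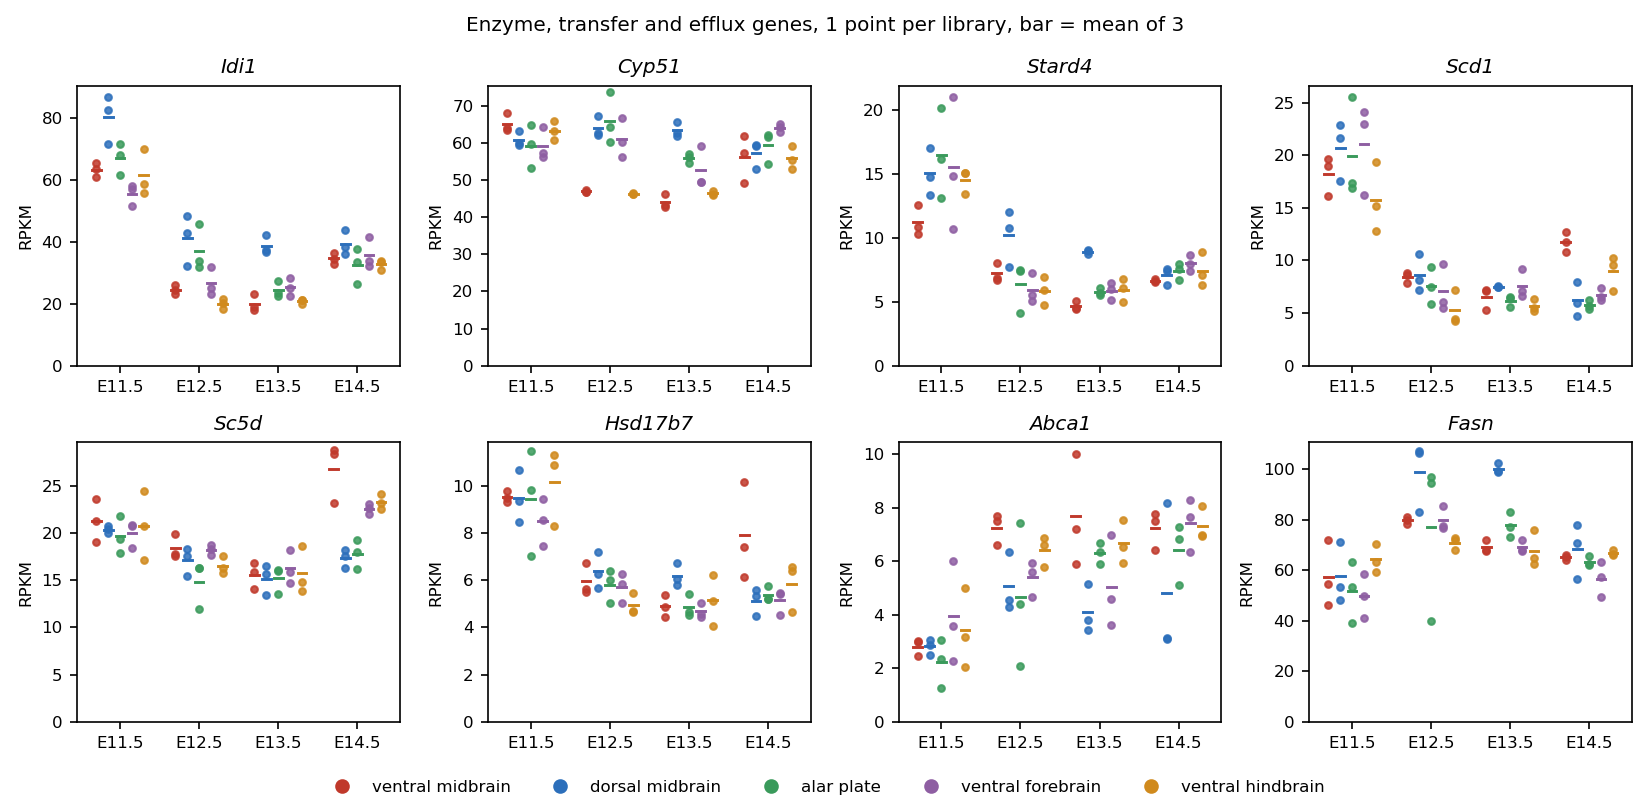
RPKM of Idi1, Cyp51, Stard4, Scd1, Sc5d, Hsd17b7, Abca1 and Fasn in each of the 60 libraries (dots, coloured by region) by stage, with a bar at the mean of the 3 libraries of each region; each y axis starts at 0. Idi1, Stard4 and Scd1 are highest at E11.5 in all regions, and at E14.5 the Scd1 dots of the ventral midbrain (10.8 to 12.7) lie above all others.

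Members that changed between the first and last stage mostly fell, with both efflux pumps among those that rose. From E11.5 to E14.5, over the 5 regions together, 7 of 35 members rose, against 33.3% of all genes, and 19 fell (54.3% of members, against 39.2%) in the limma fit. By role, 2 of 7 regulators rose and 4 fell, 1 of 17 sterol enzymes rose and 8 fell, 2 of 3 transfer and efflux genes rose and 1 fell, and 2 of 8 fatty acid enzymes rose and 6 fell. The median log2 change was -0.24 over the members and -0.06 over all genes. After scaling by median ratios the split was 10 higher and 17 lower. The E11.5 dorsal midbrain libraries and the E14.5 alar plate, ventral forebrain and ventral hindbrain libraries share 1 run prefix. Between these 26 members passed, 8 higher and 18 lower, 23 of them kept from the full comparison, although region differs there too. Both alternative splits are given without a share of all genes, so they have no background.

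Srebf1 ran from 14.7 to 22.9 RPKM at E11.5 (median 18.2, 15 libraries) and from 8.01 to 16.6 at E14.5 (median 11.8), with means of 17.9, 16.5, 16.2 and 11.9 over the 4 stages. It fell by 0.56 ± 0.06 on the log2 scale from E11.5 to E14.5 (limma adjusted p = 1.4e-08), most of it after E13.5 as means go, with partial overlap of the libraries. Insig1 ran from 32.2 to 57.8 RPKM at E11.5 (median 47) and from 22.2 to 46.5 at E14.5 (median 29.997), and fell by 0.59 ± 0.07 (adjusted p = 9.9e-08). Its stage means of 47.8, 33.6, 31.4 and 31.7 RPKM placed the drop before E12.5, unlike that of Srebf1. Srebf2 and Nr1h2 fell by 0.28 and 0.23, the latter not past the threshold after median ratio scaling (-0.17, adjusted p = 0.067), whereas Scap (0.33; adjusted p = 4.7e-06) and Insig2 (0.32; adjusted p = 3.9e-06) rose. The 2 Insig genes therefore moved in opposite directions.

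Scd1, Idi1 and Stard4 had the largest falls. Scd1 ran from 12.8 to 25.5 RPKM at E11.5 (median 19) and from 4.77 to 12.7 at E14.5 (median 7.14), the lowest value of the first stage lying just above the highest of the last, and fell by 1.21 ± 0.08 on the log2 scale (limma adjusted p = 5.1e-12). It was the only member past both the adjusted p and a change of 1 on the log2 scale, against 14.3% of all genes. Idi1 ran from 51.5 to 86.8 RPKM at E11.5 (median 63.4) and from 26.3 to 43.8 at E14.5 (median 33.9), with no overlap, and fell by 0.88 ± 0.05 (adjusted p = 7.8e-13). Stard4 ran from 10.3 to 21 at E11.5 (median 14.7) and from 6.27 to 8.87 at E14.5 (median 7.36), again with no overlap, and fell by 0.88 ± 0.08 (adjusted p = 2.9e-10). The efflux pumps went the other way. Abca1 ran from 1.28 to 6.03 RPKM at E11.5 (median 2.98) and from 3.11 to 8.28 at E14.5 (median 7) and rose by 0.93 ± 0.13 (adjusted p = 6.6e-07), and Abcg1 rose by 0.54 (adjusted p = 1.9e-05). The other sterol enzymes that fell included Hsd17b7 (-0.61), Dhcr7 (-0.55), Lss (-0.37), Acat2 (-0.35) and Nsdhl (-0.35), and among fatty acid enzymes Acly (-0.39) and Scd2 (-0.38) fell while Fasn (0.20; adjusted p = 0.021) and Acaca (0.16; adjusted p = 0.009) rose. Over the same interval all 8 neuron markers rose (median 1.01), all 6 proliferation markers fell (median -2.45), 6 of 8 progenitor markers fell and 1 rose (median -0.87), and all 5 tested erythroid markers fell (median -3.63). Their part in the member changes was not tested.

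Split at E12.5, which shares its libraries with both steps, the interval gave the following counts. From E11.5 to E12.5, 8 of 35 members rose (22.9%, against 32.1% of all genes) and 18 fell (51.4%, against 37%), or 10 and 13 after median ratio scaling. Scd1 fell by 1.28 ± 0.10 and Idi1 by 1.15 ± 0.06 on the log2 scale (limma adjusted p = 1.9e-10 and 5.5e-12), the 2 members past a change of 1, against 8.99% of all genes. Stard4 (-0.95), Hsd17b7 (-0.62), Nsdhl (-0.56), Scd2 (-0.53) and Insig1 (-0.51) also fell, Abca1 (0.75), Abcg1 (0.73), Fasn (0.51), Scap (0.38) and Nr1h2 (0.31) rose, and Srebf1 changed by -0.14 (adjusted p = 0.076). From E12.5 to E14.5, 6 of 34 members rose (17.6%, against 23.7%) and 10 fell (29.4%, against 24.3%), with none past a change of 1, against 0.893% of all genes. Nr1h2 fell by 0.53 (adjusted p = 5.8e-06), Srebf1 by 0.42 ± 0.07 (adjusted p = 5.9e-05) and Fasn by 0.31, while Sc5d (0.31), Idi1 (0.27) and Hmgcs1 (0.19) rose. Without the libraries closer to another region this later split was 9 higher and 6 lower, again without a share of all genes.

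**Figure D4:**
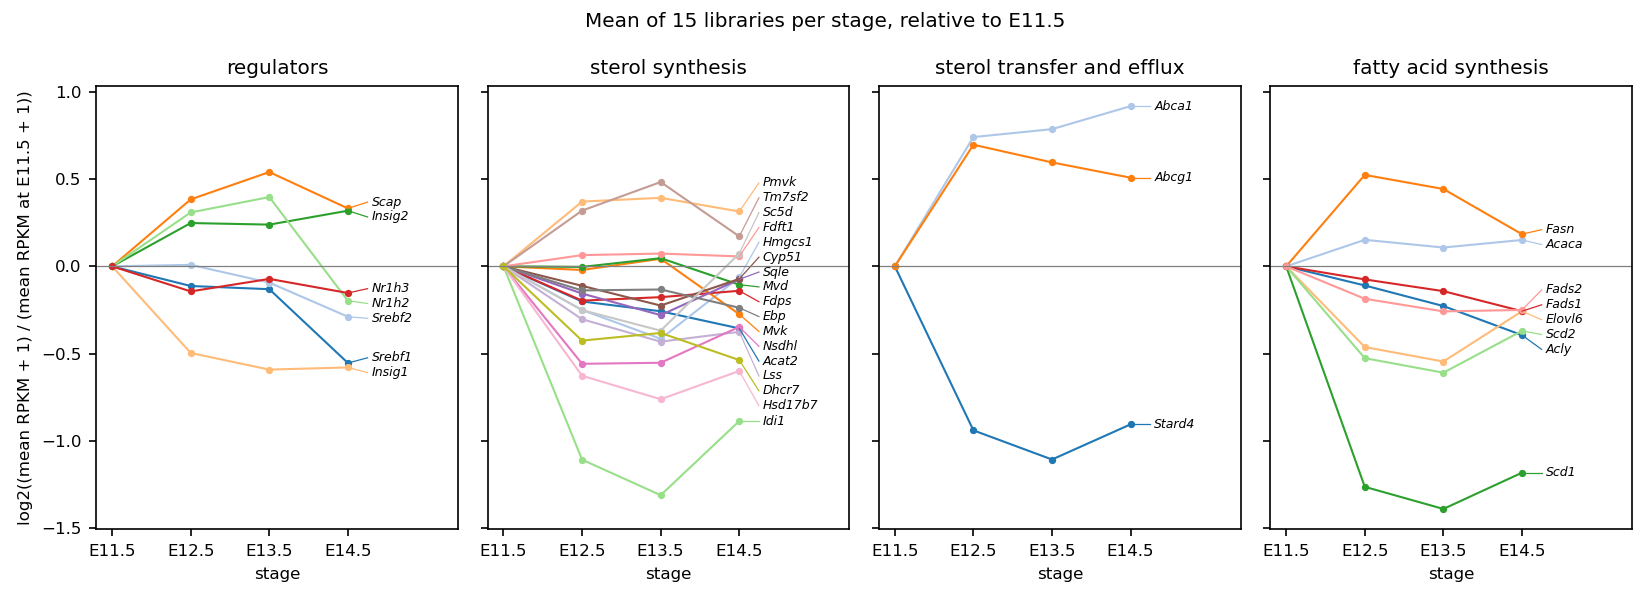
Mean RPKM over the 15 libraries of each stage relative to E11.5, as log2((mean + 1) / (mean at E11.5 + 1)), for each member in 4 panels by role. Scd1, Idi1 and Stard4 drop between E11.5 and E12.5, Abca1 and Abcg1 go up over the same day, and Srebf1 drops after E13.5.

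Whether the change from E11.5 to E14.5 differed in the ventral midbrain was tested as the change there minus the mean change elsewhere. Run prefixes also changed between these stages, and not alike in all regions, so this contrast is mixed with run. In the limma fit 0 of 35 members passed (6 had an unadjusted p below 0.05, and voom also gave 0), against 1.37% of all genes, or 0.918% with the minimum of 1 on the log2 scale. The smallest adjusted p-values were for Scd1, whose difference of 0.77 ± 0.20 had an adjusted p of 0.059, and Abcg1 (-0.82; 0.088). For Srebf1 the difference was 0.30 ± 0.15 (adjusted p = 0.35), and 0.18 ± 0.16 (adjusted p = 0.72) without ventral midbrain replicate 4 of E11.5. Left out singly, alar plate replicate 2 of E11.5 gave 2 calls, and ventral hindbrain replicate 4 or 6, ventral forebrain replicate 4 or alar plate replicate 4 of E11.5, or dorsal midbrain replicate 4 of E14.5, gave 1.

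Levels across the 20 group means were also set beside those of Srebf1, as a description over points that share stages and runs. Spearman's rho with Srebf1 was 0.67 for Insig1, 0.65 for Dhcr7, 0.62 for Srebf2, 0.59 for Acly and 0.52 for Scd1. It was near 0 for Fasn (-0.05), Cyp51 (-0.07), Scap (-0.09) and Hmgcs1 (-0.12), and below 0 for Abca1 (-0.34), Pmvk (-0.48) and Insig2 (-0.66). Of all tested genes, 4.64% had a rho with Srebf1 at or above that of Insig1. Among the 17 sterol synthesis enzymes the median rho over 136 pairs was 0.34, with 101 pairs above 0 and a range from -0.73 to 0.91 (Idi1 with Nsdhl). Among the 8 fatty acid enzymes it was 0.38 over 28 pairs, 19 of them above 0, and among the 7 regulators 0.09 over 21 pairs, 13 above 0. No such median was taken over pairs of all genes, so these values have no background. Across roles Idi1 ran with Stard4 (0.89) and against Scap (-0.84), and Srebf2 ran with Acly (0.89).

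Of 39 other genes of sterol and fatty acid handling, 37 were listed and are given by counts. Among the regions at E12.5 and E13.5, 24 of 33 tested passed the limma F test (72.7%, near the 68.6% of all genes). In the ventral midbrain 4 were higher and 3 lower (all genes 15.7% and 13.8%), among them the acetyl-CoA synthetase Acss2 (-0.33), the precursor protease Mbtps1 (0.22) and the cholesterol 24-hydroxylase Cyp46a1 (-0.48). In the dorsal midbrain 12 were higher and 11 lower (all genes 32.3% and 28.2%), led by Rxra, the partner receptor of the liver X receptors (0.85), Gramd1a (-0.43), Cyp46a1 (1.15) and Tecr (-0.40). In the ventral hindbrain 8 were higher and 4 lower (all genes 19.4% and 20.2%), with Mid1ip1 (0.79), Slc25a1 (0.36), Mbtps2 (0.40) and Me1 (0.50) leading. The alar plate had 2 higher and 3 lower (all genes 5.27% and 8.35%), and the ventral forebrain 1 and 4 (all genes 5.72% and 8.17%). At E11.5 0 of 35 passed in the ventral midbrain (limma; 2 were below 0.05 before adjustment; all genes 0.0217%), and at E14.5 5 of 34 were higher and 1 lower (all genes 8.86% and 9.21%), the acyl-CoA synthetases Acsl3 (0.44) and Acsl4 (0.37), the elongase Elovl5 (0.38) and the protease Mbtps2 (0.40) among the higher. From E11.5 to E14.5, 12 of 35 rose and 14 fell (all genes 33.3% and 39.2%), led by Rxra (-1.30), Npc2 (-0.72), Abcg4 (1.02) and Elovl4 (0.74). For 1 of 35, Acsl3, the change in the ventral midbrain exceeded that elsewhere (all genes 1.37%), by 0.43 (adjusted p = 0.048).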

How the data were processed

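The authors deposited RPKM, scaled to a listed feature's length in kilobases and to 1000000 assigned reads. This was inferred from the values, 99.9% of which became whole reads (tolerance 0.001) when length was undone and a library's smallest step divided out. Bowtie and the build mm10 are named in the submitters' processing notes, while counter, annotation, filters and strand are not given in the sources used. RNA was isolated with RNeasy and made into TruSeq libraries, per the labels.

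Library groups come from the labels. Genes whose mean reached 1 RPKM in some group of the fit were tested with limma 3.58.1 (R 4.3.3, mean-variance trend) on log2(RPKM + 1), with a Benjamini-Hochberg adjusted p, over all genes tested, below 0.05 as the call. The pseudocount of 1 understates changes of low genes. The tests were also run on simulated counts of independent libraries, with no run differences, no paired replicates and no libraries closer to another region. Such a check does not cover those features of the real libraries. Alternatives were a pseudocount of 0.1, no filter, a change of at least 1, voom on the recovered reads, a replicate block, each library left out, libraries closer to another region left out, and run prefixes. The stage steps through E12.5, single-stage fits, median ratio scaling and the fit within a run prefix were chosen after seeing the data. The members, lists and rules for naming genes (all members, values for the regulators and for up to 3 called per role, and up to 4 other pathway genes per comparison) were chosen with earlier results of these data known. A library with 0 reads allows up to 3. Promoter windows are RefSeq GRCm38.p6 and exon overlaps use the mm10 annotation.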

Additional observations from a re-analysis of the deposited data

How the results depend on the processing

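None of the 125 gene calls changed direction under the alternatives run for it, of which single-stage fits covered 50; members not called were not followed, other than Srebf1 in the ventral midbrain at E11.5, which went from -0.01 to 0.11 without ventral midbrain replicate 4. Requiring a change of at least 1 on the log2 scale left 0 calls in each of the 5 regions at E12.5 and E13.5, 0 in the ventral midbrain at E14.5, 1 from E11.5 to E14.5, 2 from E11.5 to E12.5 and 0 from E12.5 to E14.5. Without libraries closer to another region the counts were 0 in the alar plate, 10 in the ventral forebrain, 19 in the ventral hindbrain, 3 in the ventral midbrain at E11.5 and 4 at E14.5. E12.5 fitted alone gave 11 in the F test, 2 in the ventral midbrain, 5 in the dorsal midbrain, 2 in the alar plate, 0 in the ventral forebrain and 5 in the ventral hindbrain. E13.5 alone gave 0 in the alar plate and 1 in the ventral forebrain. Median ratio scaling gave 1 call for the ventral midbrain change minus the change elsewhere. Beyond the fewer libraries in some of these fits, the cause was not tested.

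Leaving out 1 library at a time gave 22 to 28 member calls in the F test, 7 to 15 in the ventral midbrain and 18 to 21 in the dorsal midbrain. It gave 2 to 9 in the alar plate, 1 to 6 in the ventral forebrain and 11 to 17 in the ventral hindbrain. Over all genes the same fits gave 8814 to 10884 calls in the F test. They gave 3140 to 5384 in the ventral midbrain and 7457 to 9759 in the dorsal midbrain. In the alar plate they gave 1261 to 3579, in the ventral forebrain 1332 to 2713 and in the ventral hindbrain 4325 to 6924. At the other stages leaving out 1 library gave 0 to 0 members for the ventral midbrain at E11.5 and 2 to 7 at E14.5. It gave 0 to 2 for the ventral midbrain change. For the stage steps it gave 26 to 29 from E11.5 to E14.5, 26 to 28 from E11.5 to E12.5 and 15 to 18 from E12.5 to E14.5. Over all genes the ventral midbrain had 0 to 57 at E11.5, 1107 to 3302 at E14.5 and 101 to 304 for its change. The stage steps had 10354 to 10705, 9621 to 10396 and 6428 to 7426 in the same order. Apart from the stricter thresholds, the other alternatives are given without all-gene counts, so their member counts have no background here. In the ventral midbrain contrast at E12.5 and E13.5 7 of the 10 calls held throughout. The ventral forebrain count of 4 fell to 1 without ventral forebrain replicate 2 of E12.5 or replicate 4 or 5 of E13.5, and to 2 without ventral midbrain replicate 3 or dorsal midbrain replicate 2 of E12.5, or ventral midbrain, alar plate, ventral hindbrain or ventral forebrain replicate 6 or dorsal midbrain replicate 5 of E13.5.

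Of 125 gene calls, 125 were kept at a pseudocount of 0.1, 121 without the filter, 123 with voom and 118 after median ratio scaling. The replicate block gave 25 in the F test, 12, 21, 7, 4 and 12 in the 5 regions (ventral midbrain, dorsal midbrain, alar plate, ventral forebrain, ventral hindbrain), 0 and 7 in the ventral midbrain at E11.5 and E14.5, 26, 26 and 17 for the stage steps (E11.5 to E14.5, E11.5 to E12.5, E12.5 to E14.5) and 0 for the ventral midbrain change, and kept all 125. The labels do not say whether the numbers pair the samples, and the main fits had no block. With group means removed, same-numbered libraries correlated above 0.1 in 10, 18, 21 and 12 of 30 pairs per stage. Their median correlations were 0.003, 0.22, 0.17 and 0.07, against -0.01, -0.09, -0.07 and -0.05 for different numbers. Of 15 libraries per stage, 5, 10, 15 and 12 lay closest to their own number. From E12.5 on these values hint at a pairing, which the main fits leave out. Depth at E14.5, as low as 0.979 in units of 1000000 reads, limits Nr1h3, whose median over the libraries of all stages was 7.5 reads.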

Other observations

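Across the 20 group means, the tested genes outside the set whose levels were most like those of Srebf1 were Ppp1r13l (Spearman's rho 0.94), Nfkb2 (0.93), Ddost (0.92), Zbtb42 (0.92), Cyb5r3 (0.92), Fgfrl1 (0.90) and Nes (0.89), each above every member of the set. Nes encodes nestin, an intermediate filament of neural progenitors, and Cyb5r3 a cytochrome b5 reductase. These genes were named after their values were seen, and the group means share stages and runs.

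Nr1h3 had its highest group mean in the dorsal midbrain at E11.5, where the 3 libraries held 1.71, 0.655 and 1.09 RPKM, and its lowest in the ventral hindbrain at E14.5, with 0.434, 0.316 and 0.349. Libraries held 1 to 33 reads of it, so most of this range is within a few reads.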
